A study of Mus musculus with 4 samples.

Results

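Cycling NK cells of the MC38b tumours were 385 barcodes chosen by their raw UMI counts (unique molecular identifiers, 1 per captured RNA molecule) in 4 droplet single-cell libraries. A barcode was taken when it held at least 1000 UMIs, 500 genes and under 10% mitochondrial UMIs, at least 2 UMIs of Ncr1 and Klrb1c together, none of Cd3d or Cd3e, at least 3 of Mki67 and Top2a together, at most 2 of the 3 C1q genes and at most 3 of Lyz2. This left 105 members in the first and 64 in the second PBS library (PBS 1 and PBS 2). The anti-PD-1 library gave 108, as did the anti-PD-1 plus anti-TL1A library, named combination in what follows. They were part of 4343 NK barcodes that passed the same limits without the Mki67 and Top2a condition, of 32779 barcodes past the quality limits and of 37588 deposited barcodes. The levels of these rule genes selected the members and are described without a test.

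The tumours were grown in mice from MC38b cells, of the MC38 mouse colon carcinoma family. The animals received 2 doses of PBS, of an antibody against PD-1, or of antibodies against PD-1 and TL1A, and were sampled 24 h later. PD-1 restrains activated lymphocytes, and TL1A is a TNF family cytokine whose receptor is encoded by Tnfrsf25. Digested tumours were sorted into CD45+CD3+, CD45+CD3- and CD45-CD3- cells, which were remixed at 9:9:2, and 20000 cells were loaded per condition. There were 2 PBS libraries and 1 library of each treatment. The design names 2 saline and 4 treated animals that were pooled before the sort, so whether the PBS pair stands for separate animals cannot be told, and p-values measure only the spread between these libraries.

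Natural killer (NK) cells are innate lymphocytes that kill stressed or transformed cells with perforin and granzymes, and that recruit dendritic cells and T cells with chemokines such as XCL1 and CCL5. Their response is set by the balance of activating receptors, among them NKp46 (Ncr1) and NK1.1 (Klrb1c), and inhibitory receptors of the Ly49 (Klra) and NKG2A/CD94 families. Resting NK cells divide rarely, and cytokines such as IL-15 drive their division. In tumours they lie on a range between conventional NK cells, with Eomes and CD49b (Itga2), and cells with features of type 1 innate lymphoid cells (ILC1), with CD49a (Itga1) and TRAIL (Tnfsf10).

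Ncr1, Klrb1c, Mki67 and Top2a were part of the rule, so their levels describe the members and do not test the NK label. In the members kept for the treatment comparisons (below), Ncr1 stood at 287, 266, 265 and 301 CPM (UMIs per 1000000 UMIs of the class, after TMM scaling). Values are given throughout in the order PBS 1, PBS 2, anti-PD-1, combination. Sums over a list and medians over single members are CPM without the TMM scaling. Klrb1c stood at 195, 258, 227 and 202 CPM, Mki67 at 525, 538, 407 and 438 and Top2a at 710, 694, 668 and 588 CPM. The T cell marker list, without the rule genes, summed to 866, 1040, 1020 and 935 CPM, well under cycling T cells, where it summed to 4908 CPM or more. Limits on Cd3d and Cd3e set these classes apart, so the rules fixed this contrast in part. The ILC2 and ILC3 list summed to 282, 409, 291 and 317 CPM, with 8 of 14 genes detected and Il13, Il5, Il22, Ccr6 and Il17a among those at 0. The macrophage and monocyte list, with all 16 genes detected, summed to 466, 575, 573 and 608 CPM. The dendritic cell list summed to 73.5, 113, 64.1 and 64.2 CPM, with 7 of 12 genes detected and Xcr1, Clec9a, Cd209a, Fscn1 and Siglech at 0. The B cell list summed to 96.9, 106, 80.9 and 81.3 CPM, with 6 of 8 genes detected and Pax5 among those at 0. The part of these transcripts in the results was not tested. A UMI of Cd3g, Trac, Cd8b1 or Cd4 was found in 35.2%, 35.9%, 29.6% and 29.6% of the members, against 20.5%, 18.4%, 14.5% and 18.9% of the shallower other NK barcodes. Tnfrsf25, the receptor of TL1A, had a UMI in 2, 1, 1 and 1 members, so a treatment difference in it was not detectable at this depth.

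The rule reads absolute UMIs, so it takes deep barcodes more easily. Median UMIs were 21573, 21561, 14400.5 and 19106 in the members and 6491, 6998, 4544 and 5567 in the 3958 other NK barcodes. Just inside the limit, 22, 14, 27 and 36 members held 3 UMIs of Mki67 and Top2a. Just outside it, 50, 59, 57 and 81 NK barcodes held 2, with median depths of 12574, 11678, 8768 and 9857 UMIs. Barcodes shared between libraries were common in the PBS pair: 54 of the 105 members of PBS 1 and 36 of the 64 of PBS 2 had a barcode that was also in another library, against 1 in anti-PD-1 and 0 in combination. In each case the member was the copy with more UMIs. The copy with fewer UMIs was in the anti-PD-1 library for 54 members of PBS 1 and 36 of PBS 2, and in combination for 0. Over all barcodes, pairs among PBS 1, PBS 2 and anti-PD-1 shared 673 to 1778 barcodes, and combination shared 21 to 39 with each of them. What gave rise to this sharing was not tested.

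Members made up 12.5% (95% exact binomial interval 10.3 to 14.9), 9.05% (7.04 to 11.4), 8.32% (6.88 to 9.96) and 7.22% (5.96 to 8.65) of the NK barcodes. The PBS pair spanned 9.05% to 12.5%, and both treated libraries lay below it. With every barcode thinned to 2000 UMIs, the share of NK barcodes with a Mki67 or Top2a UMI was 12.8%, 13.8%, 13.3% and 11.7%, with PBS 2 the highest and combination the lowest. That thinning left out 5, 2, 61 and 13 NK barcodes that were shallower. Thinned to 1000 UMIs, which left out none, the share was 9.74% (7.82 to 11.9), 8.06% (6.16 to 10.3), 8.40% (6.95 to 10.0) and 6.95% (5.72 to 8.36), with PBS 1 the highest and combination the lowest, as at full depth. Neutrophils, which do not divide, gave 9.68%, 3.90%, 0% (0 of 36) and 10.3% in the thinning to 2000 UMIs, and these background shares rest on few barcodes. The intervals of the 4 shares overlapped in either thinning, but overlap is no test of a difference, and none was run. With 1 library of each treatment, whether the share of cycling NK cells differed between treatments cannot be told. The intervals cover counting error only.

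**Figure D1:**
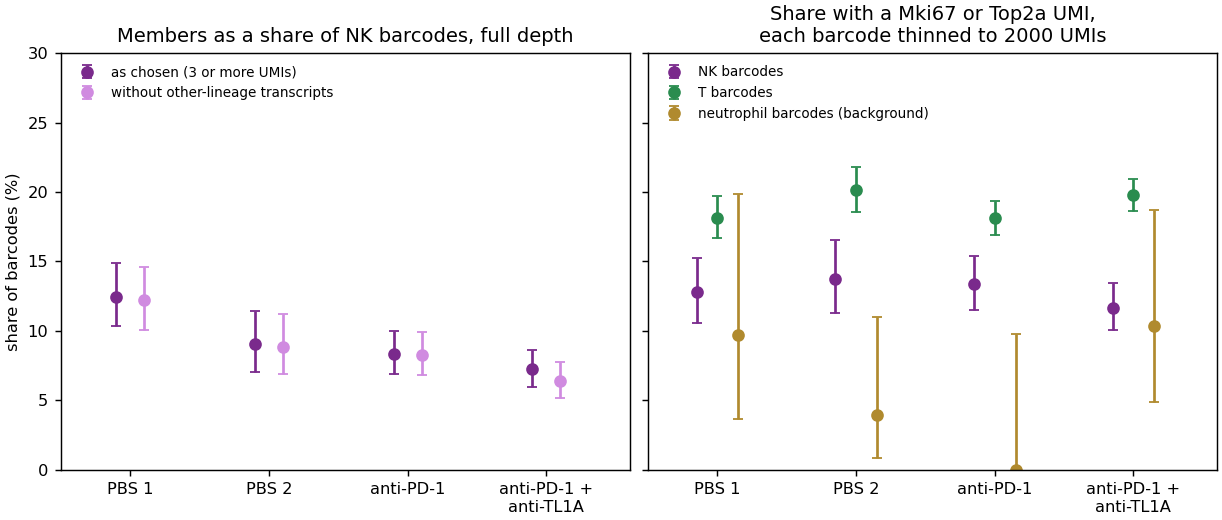
Left, members as a percentage of NK barcodes in each library as chosen and without barcodes that hold transcripts of other lineages; right, percentage of NK, T and neutrophil barcodes with a Mki67 or Top2a UMI after each barcode was thinned to 2000 UMIs. Points are shares and bars 95% exact binomial intervals; the NK share runs from 12.5% down to 7.22% at full depth and lies between 11.7% and 13.8% when thinned.

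Some members also carried transcripts of CD45-negative cells. In the combination library 14 of 108 members (13.0%, interval 7.27 to 20.8) held at least 20 UMIs of the tumour epithelial and stromal marker lists, with 38 to 708 such UMIs each. They had a median of 87289.5 UMIs and made up 41.9% of all UMIs of that library's members. In PBS 1, PBS 2 and anti-PD-1 there were 2, 1 and 2 such members, with 6.04%, 8.09% and 7.21% of the UMIs. Of the 14, 12 also held an Ncr1 UMI. The other members had a median of 2 to 3 UMIs of these lists and at most 18. Whether these barcodes are droplets with more than 1 cell was not tested. Without them and without the few members with at least 50 UMIs of the dendritic and B cell lists, 102, 62, 106 and 94 members were left, with median depths of 21413.5, 20998, 14165.5 and 15857.5 UMIs. The summed stromal list went from 386, 435, 237 and 1250 CPM in all members to 102, 127, 150 and 159 CPM in the members left.

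**Figure D2:**
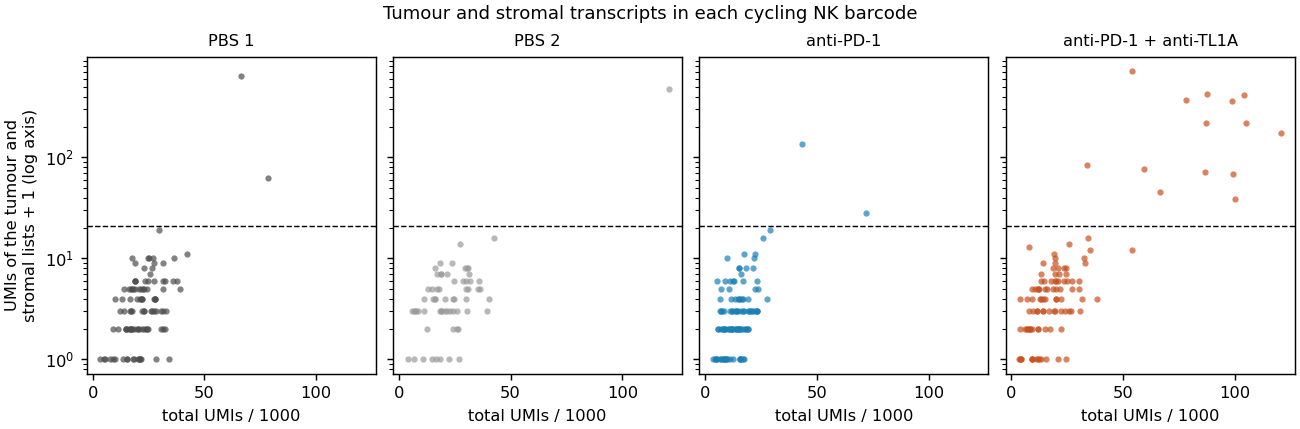
Each point is a cycling NK barcode, with its total UMIs in units of 1000 across and its UMIs of the tumour and stromal lists plus 1 on a log axis upward, 1 panel per library. The dashed line marks 20 UMIs: 2, 1, 2 and 14 members lie above it, most of the 14 in the combination library at depths beyond the other members.

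The treatments were compared on UMIs summed over the members of each library with edgeR's quasi-likelihood test, at an adjusted p of 0.05. In all members, 23 of 11004 genes (0.209%) differed between anti-PD-1 and PBS, 12 higher and 11 lower. The combination differed from PBS in 1149 genes (10.4%), 754 of them higher, and from anti-PD-1 in 769 genes (6.99%). Without the members that carried other lineages the counts were 124 of 9727 (1.27%), 69 higher and 55 lower, for anti-PD-1 over PBS, 116 (1.19%), 63 higher and 53 lower, for combination over PBS, and 77 (0.792%), 38 higher and 39 lower, for combination over anti-PD-1. Both comparisons with PBS use the same 2 PBS libraries. The spread comes from the PBS pair alone (1 residual degree of freedom) and is taken to hold for the treated libraries. In summed counts, fewer cells that express a gene and less RNA per cell cannot be told apart.

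The large count of the combination library in all members was led by genes of which several were low in the members left. The 10 genes higher than in PBS with the smallest adjusted p were Gbp2, Psd3, Cntn3, Gm30835, Ccnd1, Dst, Cald1, Gm11033, Cacna2d1 and Tenm4. Psd3 stood at 14.4, 17.0, 4.68 and 204 CPM in all members (log2 fold change 3.72 ± 0.20, SE), and Cald1, an actin-binding protein of smooth muscle and fibroblasts, at 29.6, 23.5, 21.4 and 173 CPM (2.68 ± 0.19). Both were too low for a test in the members left. Ccnd1, cyclin D1, went from 52.9, 51.6, 61.5 and 288 CPM to 8.20, 11.6, 10.1 and 5.41 CPM, and Gbp2, an interferon-induced GTPase, from 46.9, 43.7, 81.6 and 332 to 25, 36.3, 26.6 and 40.9 CPM. In the anti-PD-1 comparison of all members, Gzmf, Gzme, Ccl5, Ifitm1, Lars2, Cdk8, Galnt18 and Gab3 were among the 10 higher genes and Inpp4b, Xcl1, Nr4a3, Cenpf, Gem, Pfn1 and Hist1h3c among the 10 lower ones; each of these 15 genes also passed in the members left. The accounts that follow use the members left, a choice made after seeing the data.

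Some cytotoxic effectors rose in both treated libraries, among them granzymes of the chromosome 14 cluster. Of 19 listed effectors tested, 7 rose under anti-PD-1 (Gzmf, Gzmd, Gzmg, Gzme, Prf1, Gzma and Nkg7) and 1 fell (Tnfsf10). Under the combination 4 rose (Gzme, Gzmf, Gzmd and Gzma) and Tnfsf10 fell. The list's median log2 fold change was 0.40 and 0.15, against -0.02 and -0.01 over all genes tested. Gzmd, Gzme and Gzmf are neighbouring serine proteases of lytic granules that are induced late in activated mouse killer cells. Their promoters are shown because these genes moved together. The RefSeq sequence of the 250 bases before each start site on GRCm38.p6, minus strand of chromosome 14, is printed with the RUNX core TGTGGT or its reverse complement ACCACA in capitals.
Gzmd (chr14:56132594-56132843): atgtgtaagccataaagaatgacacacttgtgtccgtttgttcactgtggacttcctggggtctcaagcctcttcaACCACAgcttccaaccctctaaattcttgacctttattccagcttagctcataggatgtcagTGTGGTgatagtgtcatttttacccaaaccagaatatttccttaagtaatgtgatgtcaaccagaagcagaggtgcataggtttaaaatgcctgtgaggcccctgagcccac
Gzme (chr14:56120626-56120875): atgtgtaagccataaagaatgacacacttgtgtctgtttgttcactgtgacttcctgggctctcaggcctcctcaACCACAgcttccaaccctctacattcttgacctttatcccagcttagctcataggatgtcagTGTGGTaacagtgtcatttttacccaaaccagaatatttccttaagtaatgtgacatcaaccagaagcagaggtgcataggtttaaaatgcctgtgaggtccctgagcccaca
Gzmf (chr14:56211408-56211657): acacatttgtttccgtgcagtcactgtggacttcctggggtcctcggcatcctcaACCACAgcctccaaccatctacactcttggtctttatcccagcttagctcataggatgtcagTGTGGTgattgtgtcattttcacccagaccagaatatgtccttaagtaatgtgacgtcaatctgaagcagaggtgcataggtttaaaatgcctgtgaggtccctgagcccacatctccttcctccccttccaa
Each held 2 RUNX matches, and 14.0% of all 32851 promoters of that length hold at least 1 on either strand. None of the 3 held the T-box core GGTGTGA (3.33% of promoters) or the AP-1 motif TGANTCA (6.75%) on either strand. The Gzmd and Gzme windows were 94.8% identical, and that of Gzmf was 74.5% and 74.9% identical to them. A match is a description of these letters only.

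Gzme (chromosome 14, 56117626 to 56120625, minus strand, GRCm38) stood at 129, 116, 298 and 356 CPM. Both treated libraries lay above both PBS libraries, with log2 fold changes of 1.28 ± 0.16 and 1.53 ± 0.15 (SE; edgeR adjusted p = 5.74e-13 and 1.83e-20). Gzmd (56129556 to 56132608, minus strand) stood at 219, 331, 669 and 706 CPM, 1.30 ± 0.15 and 1.38 ± 0.15 above PBS. Gzmf (56205263 to 56211417, minus strand) stood at 151, 140, 446 and 414 CPM, 1.61 ± 0.15 and 1.51 ± 0.15 above PBS. These genes were carried by few cells. For Gzmf, 1 member gave 97.4% of the UMIs of PBS 2 and 44.7% of those of PBS 1, and without each library's top member the fold changes were 2.85 and 2.52 but no longer passed (edgeR adjusted p = 0.76 and 0.82). Gzmg, listed above, rose by 2.77 without PBS 1 and by 0.74 without PBS 2. For Gzmd the top member gave 34.9%, 53.0%, 17.6% and 15.8%. The 3 genes are near copies of each other: 37.7%, 45.5% and 21.1% of the 31-mers from the last 500 bases of Gzmd, Gzme and Gzmf also occur in another gene, so their split is uncertain.

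Cell by cell, 16 of 102, 9 of 62, 25 of 106 and 22 of 94 members held at least 10 UMIs of Gzmd, Gzme and Gzmf together. That is 15.7% (interval 9.24 to 24.2), 14.5% (6.86 to 25.8), 23.6% (15.9 to 32.8) and 23.4% (15.3 to 33.3), and the intervals of all 4 libraries overlapped. These members held 95.6%, 94.2%, 97.7% and 96.8% of the UMIs of the 3 genes, while 69, 41, 64 and 52 members had none. In other NK barcodes the share was 3.14%, 3.13%, 6.19% and 4.28%, at lower depth. The granzyme-high members also carried more Gzmc, with medians of 7856, 9552, 11380 and 5433 CPM against 995, 339, 285 and 966 CPM in the rest. Of them, 16, 8, 23 and 20 had an Itga1 UMI and 8, 7, 13 and 15 an Eomes UMI.

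**Figure D3:**
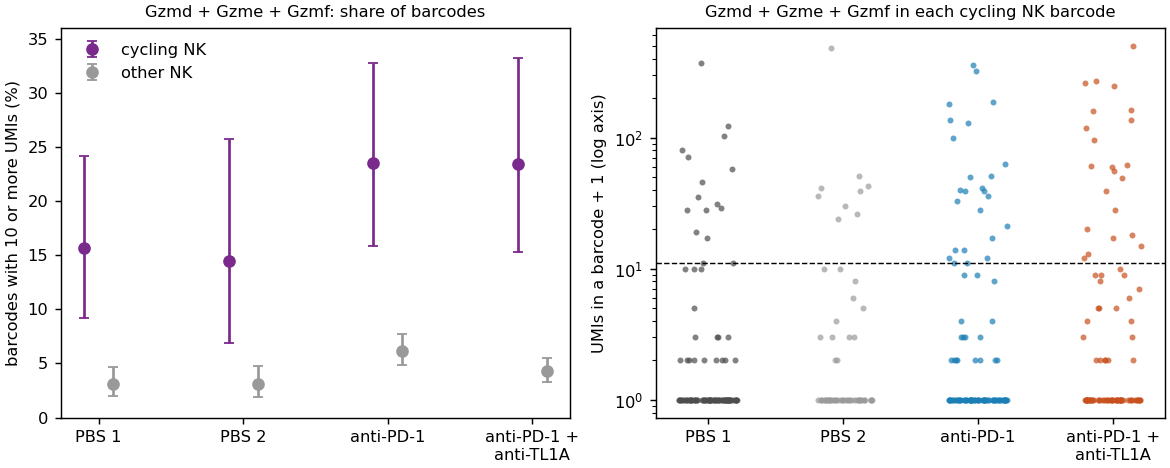
Left, percentage of barcodes with at least 10 UMIs of Gzmd, Gzme and Gzmf together in cycling and other NK cells, with 95% exact binomial intervals; right, those UMIs plus 1 in each cycling NK barcode on a log axis, with the limit dashed. The shares of cycling NK cells run from 14.5% to 23.6%, and most members sit at 0 UMIs while single members reach 357 to 498.

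The granzyme rise was shared with other cells. In other NK barcodes Gzme rose by 1.79 ± 0.15 and 1.06 ± 0.16 on the log2 scale and Gzmd by 1.98 ± 0.16 and 1.31 ± 0.16, and in cycling T cells Gzme rose by 3.66 ± 0.18 and 3.09 ± 0.18. The rise of Gzme in cycling NK cells was smaller than in cycling T cells, with a difference of -2.37 ± 0.22 under anti-PD-1 and -1.53 ± 0.21 under the combination (interaction term, edgeR adjusted p = 8.05e-09 and 6.66e-05). Cycling T cells started from 7.95 and 7.32 CPM of Gzme in the PBS pair and reached 96.5 and 64.6 CPM, still below the cycling NK cells. The rise of Gzme under anti-PD-1 was not called different from that in other NK barcodes (-0.51 ± 0.19, adjusted p = 0.62).

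Gzma, granzyme A (chromosome 13, 113093825 to 113100981, minus strand), stood at 1268, 1627, 2296 and 2253 CPM and rose by 0.67 ± 0.18 and 0.64 ± 0.18 on the log2 scale (edgeR adjusted p = 0.023 and 0.036). The treated libraries again lay above both PBS libraries, and the gene was spread over 63, 32, 69 and 62 members. In cycling T cells Gzma went from 76.0 and 95.7 CPM to 444 and 396 CPM, and the change in cycling NK cells minus that in cycling T cells was -1.70 ± 0.13 and -1.56 ± 0.12. Prf1, perforin, stood at 248, 439, 562 and 464 CPM and rose under anti-PD-1 only by the test (0.73 ± 0.18, edgeR adjusted p = 0.035); under the combination the difference was 0.45 ± 0.19 with an adjusted p of 0.34. Without PBS 1 the rise of Prf1 under anti-PD-1 was 0.37, and without PBS 2 it was 1.19. The PBS pair differed by more in Prf1 than either treated library did from PBS 2. Gzmb, at 628, 1021, 1038 and 1040 CPM, and Gzmc, the most abundant granzyme at 4434, 4308, 6005 and 4856 CPM, did not pass in either comparison.

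Chemokines moved in both directions. Ccl5 (chromosome 11, 83525778 to 83530518, minus strand), which attracts T cells, stood at 242, 339, 657 and 689 CPM and rose by 1.19 ± 0.15 and 1.26 ± 0.15 (edgeR adjusted p = 1.41e-12 and 1.65e-14). It had a UMI in 49, 30, 43 and 49 members, with at most 14.8% of a library's UMIs from 1 member. Other NK barcodes held more Ccl5, at 3036, 3239, 4115 and 4176 CPM, with differences of 0.39 ± 0.31 and 0.41 ± 0.31 that did not pass, and the rise was larger in the cycling cells (interaction 0.81 ± 0.12 and 0.87 ± 0.12, edgeR adjusted p = 1.06e-07 and 7.66e-09). Xcl1 (chromosome 1, 164931644 to 164935527, minus strand), the ligand of XCR1 on cross-presenting dendritic cells, stood at 1286, 1286, 613 and 955 CPM. It fell by 1.07 ± 0.18 under anti-PD-1 (edgeR adjusted p = 2.72e-06) and differed by -0.43 ± 0.17 under the combination (adjusted p = 0.28). The fall under anti-PD-1 was larger than in other NK barcodes, where Xcl1 stood at 1028, 718, 665 and 719 CPM (interaction -0.69 ± 0.13, adjusted p = 3.15e-04). Ccl4, an inflammatory chemokine, stood at 251, 181, 109 and 122 CPM and fell by 1.0 ± 0.18 and 0.84 ± 0.17; under the combination the fall differed from other NK barcodes, where Ccl4 stood at 604, 596, 442 and 674 CPM, by -0.99 ± 0.17 (adjusted p = 5.46e-05). Spp1, osteopontin, rose under the combination alone by the test (406, 521, 520 and 814 CPM; 0.82 ± 0.15). Ifng stood at 91.1, 72.6, 78.4 and 69.8 CPM and passed in no comparison. Of the 12 listed cytokines and chemokines tested, 1 rose and 3 fell under anti-PD-1 (median -0.40), and 2 rose and 1 fell under the combination (median -0.50).

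Among receptors, Ly49 family members and the adaptor Tyrobp (DAP12) rose. Of 15 activating receptor genes tested, Klra8, Klra4 and Tyrobp rose and Klrb1f fell under anti-PD-1, and Klra8 rose under the combination (median 0.00 and 0.13). Klra8, the activating receptor Ly49H, stood at 114, 143, 209 and 218 CPM, with rises of 0.72 ± 0.16 and 0.77 ± 0.16. Tyrobp stood at 968, 900, 1507 and 1153 CPM, and rose by 0.69 ± 0.17 under anti-PD-1 (edgeR adjusted p = 0.0066). Of 17 genes of the inhibitory receptor list, Klra1 rose under anti-PD-1, and Klra3, Klri2 and Klrd1 rose under the combination. Klri2 stands in that list although its pair with KLRE1 is known as activating. Klrd1, the CD94 chain that pairs with NKG2 receptors, stood at 550, 486, 453 and 795 CPM, the combination library being the highest (0.62 ± 0.15, edgeR adjusted p = 0.0077, over PBS and 0.81 ± 0.18 over anti-PD-1). Ly49 genes are near copies: 44.5% of the 31-mers of Klra8 and 64.0% of those of Klra3 occur in another gene.

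Genes of conventional NK maturation that passed were higher and those of the ILC1 list lower. Under anti-PD-1 5 of 12 maturation genes rose, among them Cma1, Itga2, Ly6c2 and Gzma, and none fell, with a median of 0.42, and 4 of 13 ILC1 and residence genes fell (Inpp4b, Tnfsf10, Il21r and Rgs1) and none rose, with a median of -0.56. Under the combination 1 maturation gene rose (Gzma, median 0.44) and 3 ILC1 genes fell (Il21r, Tnfsf10 and Cd69, median -0.58). The fall of Cd69 (-0.69 ± 0.20, edgeR adjusted p = 0.0498) passed in none of the 8 tested alternatives of the members left, and it was -1.03 without PBS 1 and -0.32 without PBS 2. In other NK barcodes the medians of the ILC1 list were -0.01 and 0.01. Cycling T cells held a summed ILC1 list of 2970, 3309, 2250 and 2837 CPM, with both treated libraries below the PBS pair. The summed maturation list was higher in both treated libraries in other NK barcodes (6103, 7862, 8520 and 8269 CPM) and in cycling T cells (1122, 1278, 1620 and 1759 CPM). The direction of these list sums was thus not limited to cycling NK cells. Itga2 stood at 49.6, 66.8, 106 and 78.2 CPM and rose by 0.90 ± 0.21 under anti-PD-1, where 1 member gave 35.1% of its UMIs. Eomes, at 76.5, 101, 104 and 114 CPM, Tbx21, at 188, 161, 160 and 156 CPM, and Itga1, at 233, 244, 224 and 269 CPM, passed in neither comparison.

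Inpp4b, a phosphoinositide phosphatase listed among ILC1 genes (chromosome 8, 81342556 to 82127914, plus strand), showed the clearest difference of this group. It stood at 920, 907, 421 and 706 CPM, so the PBS pair was close and the anti-PD-1 library lay far below both. It fell by 1.12 ± 0.17 under anti-PD-1 (edgeR adjusted p = 1.0e-07) and was 0.74 ± 0.19 higher in the combination than in the anti-PD-1 library (adjusted p = 0.023). Other NK barcodes, not matched in depth, held 641, 446, 539 and 444 CPM. Both differences departed from those in other NK barcodes by the edgeR interaction term (-1.12 ± 0.14, adjusted p = 5.82e-11, and 1.04 ± 0.16, adjusted p = 2.29e-06). Against cycling T cells, where Inpp4b stood at 1269, 1417, 885 and 1246 CPM, the difference of -0.52 ± 0.13 did not pass (adjusted p = 0.18). Tnfsf10 (TRAIL) stood at 156, 156, 81.3 and 94.4 CPM, with falls of 0.94 ± 0.19 and 0.73 ± 0.18; under anti-PD-1 the fall differed from cycling T cells by -1.01 ± 0.21 (adjusted p = 0.031). Il21r, the IL-21 receptor, stood at 286, 216, 143 and 140 CPM, with falls of 0.82 ± 0.17 and 0.85 ± 0.16.

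Of 18 listed NK transcription factors 1 fell under anti-PD-1, Tox (346, 331, 203 and 254 CPM; -0.74 ± 0.16), and none passed under the combination (medians -0.11 and -0.07). The next genes stand outside that list. Nr4a3, an immediate early nuclear receptor, stood at 231, 234, 121 and 152 CPM, with falls of 0.94 ± 0.17 and 0.62 ± 0.16. Gem, a small GTPase, stood at 337, 333, 183 and 255 CPM, and its fall under anti-PD-1 (-0.88 ± 0.16) differed from other NK barcodes by -0.78 ± 0.17 (edgeR adjusted p = 0.0056). Gab3, an adaptor of cytokine receptor signalling needed by NK cells, stood at 35.5, 55.9, 101 and 104 CPM and rose by 1.19 ± 0.22 and 1.23 ± 0.21; the rise under anti-PD-1 exceeded that in other NK barcodes by 1.09 ± 0.23 (adjusted p = 0.0030). Plac8 rose under the combination alone by the test, at 235, 248, 270 and 493 CPM (1.03 ± 0.14), as it did in other NK barcodes (0.67 ± 0.17) and in cycling T cells (1.02 ± 0.17).

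The cell cycle lists are tied to the rule and to depth, and few of their genes differed between treatments. Of 45 G1/S and S phase genes 1 rose under anti-PD-1 (Mcm7, of the replicative helicase), and of 64 G2/M genes 2 fell (Cenpf and Hmmr); under the combination none of either list passed. Cenpf, a kinetochore protein of G2 and mitosis, stood at 198, 206, 103 and 151 CPM (-0.97 ± 0.18 under anti-PD-1). In cycling T cells it stood at 205, 191, 207 and 173 CPM, and the difference between the classes was -1.04 ± 0.19 (edgeR adjusted p = 0.0094). The log2 ratio of summed G2/M to summed S phase UMIs was 0.72, 0.75, 0.46 and 0.53 in the members left, lowest under anti-PD-1. By cells, 55.9%, 53.2%, 51.9% and 52.1% of the members left had more G2/M than S UMIs, with no order beyond counting error.

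Some histone transcripts fell in the treated libraries. Of 29 replication-dependent histone genes tested, 12 fell under the combination and 5 under anti-PD-1, and none rose, with medians of -0.89 and -0.46. Their summed level was 6393, 6363, 5355 and 5198 CPM in the members left, so both treated libraries lay below the PBS pair and close to each other. In all members it was 6202, 5968, 5113 and 5604 CPM, with anti-PD-1 the lowest. Hist1h2ab stood at 163, 137, 83.4 and 49.9 CPM (-0.86 ± 0.19 and -1.60 ± 0.20), and Hist1h4d at 352, 332, 335 and 174 CPM (-0.97 ± 0.16 under the combination). In cycling T cells 19 of 31 fell under the combination (median -0.89) and none passed under anti-PD-1 (median 0.02). Over all 12818 genes tested in cycling T cells, 145 passed under the combination, 82 of them lower, and 267 under anti-PD-1. Most of these transcripts lack a poly(A) tail, and they share many 31-mers, so the split between copies is uncertain. No difference between cycling NK and cycling T cells in the response of Hist1h2ab passed the test (-0.82 ± 0.20 under anti-PD-1, edgeR adjusted p = 0.14).

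Pfn1, Cdk8, Lars2 and Btg2 differed between the 2 treated libraries in the same direction in cycling NK cells, other NK barcodes and cycling T cells. Pfn1, the actin-binding profilin, stood at 902, 754, 442 and 1369 CPM in cycling NK cells, with log2 differences of -0.91 ± 0.18, 0.72 ± 0.16 and 1.63 ± 0.20 for anti-PD-1 over PBS, combination over PBS and combination over anti-PD-1. The same differences were -0.86, 0.77 and 1.63 in other NK barcodes and -0.73, 0.86 and 1.59 in cycling T cells. Of these, the second did not pass in other NK barcodes and the first did not pass in cycling T cells (edgeR adjusted p = 0.059 and 0.10). Cdk8 stood at 363, 452, 721 and 244 CPM and Lars2, the mitochondrial leucyl-tRNA synthetase, at 140, 187, 357 and 163 CPM, each highest under anti-PD-1. The rise of Cdk8 over PBS (0.83 ± 0.14) did not pass in other NK barcodes (0.58) or cycling T cells (0.56), while its difference of combination over anti-PD-1 was -1.56, -1.31 and -1.40 in the 3 classes and passed in each. Btg2, an antiproliferative gene, was 1.31 ± 0.20 higher in the combination than in the anti-PD-1 library in cycling NK cells, 1.25 in other NK barcodes and 1.19 in cycling T cells. Whether these differences lie in the libraries or in the treatments cannot be told apart with 1 library each. Ifitm1, Ifitm2 and Ifitm3, interferon-induced membrane proteins, stood at 151, 114, 324 and 299, at 335, 209, 679 and 537 and at 162, 217, 293 and 171 CPM. The rise of Ifitm3 under anti-PD-1 (0.64 ± 0.15) was smaller than in other NK barcodes (difference -1.07 ± 0.18) and than in cycling T cells (-1.10 ± 0.19).

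Combination and anti-PD-1 are compared as 2 libraries. Of the 47 oxidative phosphorylation genes tested, 8 were lower in the combination library and none higher (median -0.36), and of 25 interferon-gamma response genes 2 were higher (Socs1 and Gbp5, median 0.33). Uqcr10, of respiratory complex III, stood at 272, 244, 379 and 198 CPM (-0.94 ± 0.18). In other NK barcodes 8 of 47 were lower as well (median -0.41), where 94 of all 12754 genes tested were lower. Cytotoxic effectors did not separate the 2 libraries in cycling NK cells, with 1 of 19 higher (Serpinb9b) and a median of -0.11; in other NK barcodes Gzmd, Gzme, Gzmf and Gzmg were lower in the combination. For Gzme the difference between the classes was 1.0 ± 0.21 (edgeR adjusted p = 0.0020).

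Where an effect is called different between cell classes above, an interaction term over all genes was tested. In cycling against other NK cells it passed for 27 of 12258 genes (0.220%) under anti-PD-1, 17 (0.139%) under the combination and 16 (0.131%) between the treated libraries. In cycling NK against cycling T cells it passed for 18 of 12492 (0.144%), 9 (0.0720%) and 1 (0.00801%). The 1 residual degree of freedom of these fits again came from the PBS pair, and the other NK barcodes were not matched in depth. The calls within the members left depended on the test. With so few libraries edgeR gave each gene the spread that all genes share, so a gene carried by few cells gets too small an error. DESeq2 called 20, 4 and 13 genes in the 3 comparisons against 124, 116 and 77. Of edgeR's calls, 77, 70 and 59 also passed without each gene's top member. In every tested alternative of these members 10 genes passed for anti-PD-1 over PBS. They were Xcl1, Cdk8, Ifitm1, Inpp4b, Gzme, AY036118, Gm42418, Cmss1, Pfn1 and Lars2. Gzme alone passed for combination over PBS, and Cdk8 and Pfn1 for combination over anti-PD-1. Leaving out a PBS library allows no test and is not among these alternatives. Cdk8, Pfn1 and Lars2 also differed between the treated libraries in other NK barcodes and cycling T cells, as given above. Of the 31-mers of AY036118, 44.7% occur in another gene.

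Itga1 and Eomes were seen together in many members. In the members left, 42, 27, 38 and 44 had a UMI of both, 12, 9, 20 and 14 of Eomes only, 42, 19, 32 and 25 of Itga1 only and 6, 7, 16 and 11 of neither. An Itga1 UMI was found in 82.4%, 74.2%, 66.0% and 73.4% of them, and in 44.1%, 41.9%, 37.7% and 41.5% after thinning to 3000 UMIs. Other NK barcodes had 37.4%, 28.8%, 33.1% and 29.4%, and 23.5%, 17.5%, 28.2% and 19.4% when thinned, and neutrophils 0%, 2.53%, 0% and 0%. For Eomes the thinned share was lower in cycling NK cells, at 17.6%, 22.6%, 20.8% and 26.6%, than in other NK barcodes, at 36.1%, 43.3%, 34.5% and 41.2%, in all 4 libraries. Other NK barcodes under 3000 UMIs cannot be thinned to that depth, so the thinned shares leave them out. In sums against other NK barcodes matched in total UMIs (below), the Eomes difference was small and Itga1 was lower, not higher, in cycling cells.

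Cycling and other NK cells were compared within libraries as a description, since the rule itself set these groups apart. In all members 4347 of 12277 genes differed (35.4%), in the members left 4385 of 11540 (38.0%), and against other NK barcodes matched in total UMIs 1236 of 9395 (13.2%). The match lowered the depth difference and also cut the other NK barcodes to 102, 62, 106 and 94, as many as the members, and the parts of depth and of smaller sums in the lower count were not tested apart. Over the 14 genes of conventional NK maturation 12 were lower in cycling cells (median -1.39), and with the match 2 of 12 (median -0.21). Ccl5 was lower by -3.0 ± 0.25 without the match and differed by 0.06 ± 0.23 with it, and Klf2, a factor of quiescence and circulation, went from -2.11 ± 0.09 to -0.03 ± 0.19. Itgam (CD11b) stood at 8.20, 5.81, 7.19 and 14.4 CPM against 58.7, 79.6, 56.3 and 87.0 CPM, a log2 difference of -2.93 ± 0.16, or -0.57 ± 0.28 with the match. Itga1 went from 0.55 ± 0.14 to -0.21 ± 0.09 and Eomes from -0.83 ± 0.08 to -0.13 ± 0.11. The matched barcodes had median depths of 17501.5, 19738.5, 13454.5 and 15812.5 UMIs, still below the members.

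With depth matched, 844 of 9395 genes were higher and 392 lower in cycling NK cells. Of 28 MYC, ribosome biogenesis and nucleotide synthesis genes 8 were higher and none lower (median 0.15, against -0.02 over all genes tested). They included Tfrc, the transferrin receptor, at 75.6, 77.7, 70.5 and 67.4 CPM against 45.4, 40.4, 28.9 and 33.8 CPM in all other NK barcodes (0.63 ± 0.13 with the match), and Ncl, nucleolin (0.28 ± 0.05). Of 19 cytotoxic effectors 4 were lower (Gzme, Prf1, Nkg7 and Ctsw), and of 15 activating receptor genes 5 (Fcgr3, Tyrobp, Cd244a, Klrb1b and Hcst). Tyrobp differed by -0.42 ± 0.05 and Prf1 by -0.32 ± 0.07. Entpd1, the ectoenzyme CD39, stood at 24.1, 30.5, 17.3 and 29.5 CPM against 83.2, 95.8, 93.6 and 94.1 CPM, and was lower by -0.86 ± 0.18 with the match. Kdm5b, a histone demethylase, was lower by -1.0 ± 0.14 and Hopx, a homeodomain cofactor of effector lymphocytes, by -0.73 ± 0.12. Cdkn1a (p21), an inhibitor of cell cycle kinases, was higher by 1.05 ± 0.18 with the match and differed by -0.05 ± 0.12 without it.

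**Figure D4:**
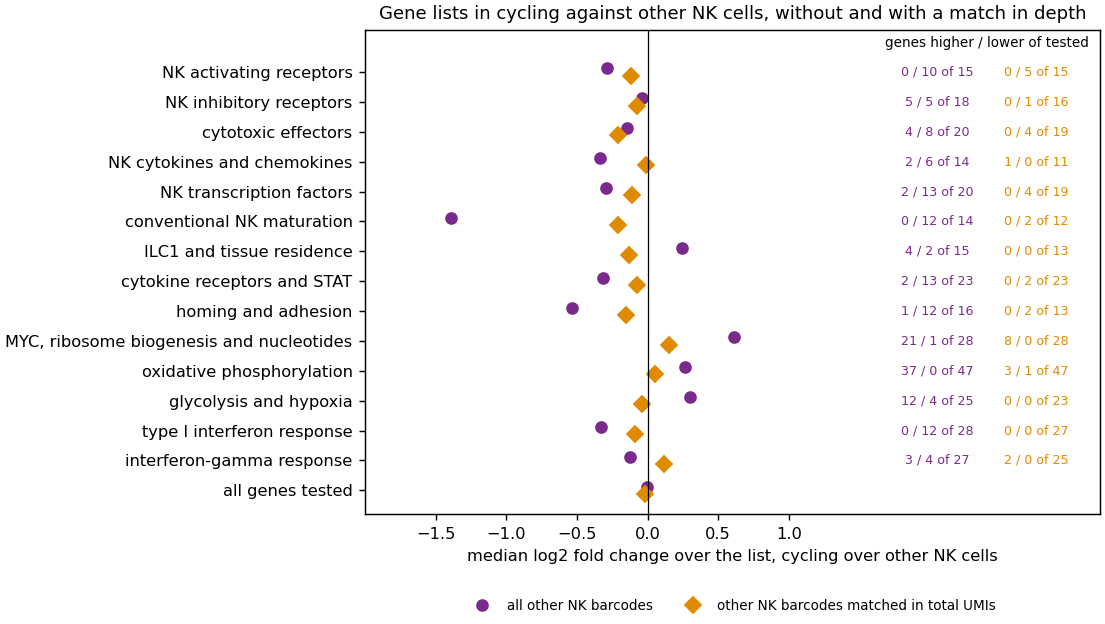
Median log2 fold change of cycling over other NK cells for 14 gene lists and all genes tested, against all other NK barcodes (circles) and against other NK barcodes matched in total UMIs (diamonds); the columns give the genes higher and lower of those tested. The median of conventional NK maturation moves from -1.39 to -0.21, and that of MYC, ribosome biogenesis and nucleotides from 0.61 to 0.15.

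Cycling T cells (2058 barcodes with at least 2 UMIs of Cd3d and Cd3e and the same Mki67 and Top2a limit) had depths close to those of the members, with medians of 18039, 19500, 12454.5 and 17198.5 UMIs. The rule used this contrast too. In all members 1986 of 12943 genes differed (15.3%) and in the members left 3965 of 11727 (33.8%). Outside the NK receptor, NK transcription factor and T cell lists, the genes highest over cycling T cells included Eya1, Sh2d1b1, Vegfc, Gzmc, Car2, Klrb1a and Clnk. Gzmc stood at 4434, 4308, 6005 and 4856 CPM against 41.2, 76.3, 170 and 87.2 CPM (5.88 ± 0.36). Car2, a carbonic anhydrase, stood at 406, 459, 375 and 398 CPM against 6.63, 7.43, 8.16 and 7.14 CPM (5.85 ± 0.09), and Clnk, an adaptor of immunoreceptor signalling, at 417, 400, 349 and 493 against 7.12, 6.30, 10.1 and 10.0 CPM. Vegfa, an angiogenic factor, stood at 93.3, 94.4, 79.8 and 90.8 against 5.47, 5.07, 2.48 and 2.06 CPM. Plcg1, the phospholipase of T cell receptor signalling, and Tnfrsf4 (OX40) were among the lowest. Plcg1 had 0, 0, 2 and 1 UMIs in the members left against 52.0, 68.3, 63.5 and 69.3 CPM in cycling T cells, and Tnfrsf4 had 4, 3, 4 and 1 UMIs against 189, 206, 275 and 194 CPM, levels too low in NK cells for a fold. Pdcd1, which encodes the target of anti-PD-1, stood at 15.5, 23.2, 27.3 and 19.9 CPM against 197, 199, 201 and 169 CPM (-3.15 ± 0.11).

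Summed over each class, cycling NK cells had lower levels of many cell cycle transcripts than cycling T cells. Median UMIs of Mki67 and Top2a together were 8, 8, 6 and 6.5 in all members against 15, 15, 15 and 13 in cycling T cells. The part of barcodes near the limit in the lower levels was not tested. Of 65 G2/M genes 41 were lower and 1 higher (median -0.32), of 45 S phase genes 21 were lower (median -0.26) and of 31 histone genes 23 were lower and 1 higher (median -0.57). Of 25 glycolysis and hypoxia genes 16 were lower and 1 higher (median -0.42): Gapdh stood at 774, 766, 999 and 757 against 1271, 1163, 1736 and 1269 CPM, and Hif1a at 184, 222, 191 and 271 against 500, 642, 465 and 616 CPM. Of 28 interferon-gamma response genes 20 were lower and 1 higher (median -0.58). Of 20 cytotoxic effectors 12 were higher and 2 lower (median 0.74).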

How the data were processed

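The deposited matrices hold raw UMI counts for a set of barcodes already filtered before deposit. Per the file headers Cell Ranger 7.1.0 wrote them, while version 3.0.2 and mm10 stand in the submitters' processing notes. The sources used here give no word on intronic reads. Counts were summed over the chosen barcodes of each library. The test was the quasi-likelihood test of edgeR 4.0.16 under R 4.3.3 (TMM scaling, filterByExpr with a minimum count of 10, robust quasi-likelihood fit of all 4 libraries, Benjamini-Hochberg adjustment over all genes tested, threshold 0.05). Comparisons of cell classes used the library as a block, and treatment differences between classes used an interaction term. Errors are standard errors (SE). Shares have 95% exact binomial (Clopper-Pearson) intervals. Doublets were scored per library with Scrublet in scanpy 1.11.5 and only left out as an alternative, since the rule does not use them. DESeq2 1.42.0 and other thresholds were alternatives. Gene positions follow GENCODE M21 (GRCm38).

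Named in each treatment comparison are the 10 genes higher and the 10 lower with the smallest adjusted p, listed genes that passed and the 2 to 4 most abundant members of a list; between classes, the 10 with the largest fold in each direction at a mean of at least 50 CPM, outside the lists that define the classes. From these the text gives a part. The members and the 29 lists were chosen with earlier results of these data known. The members left without other-lineage transcripts, and the naming rule applied again to them, were chosen after seeing the data. A few genes of the lists are not reported here.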

Additional observations from a re-analysis of the deposited data

Results flagged for a closer look

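The results here are treatment effects that differed between cycling NK cells and another class of the same libraries by the interaction term of edgeR (adjusted p under 0.05 over all genes), given as the log2 fold change in cycling NK cells (members left) minus that in the other class. Only named genes that also passed in cycling NK cells in the same comparison are given. Genes that changed in the other class alone are therefore left out, as is Gzme between the treated libraries, given above. The first comparisons share their PBS libraries.

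For anti-PD-1 over PBS against other NK barcodes, the effect was lower in cycling NK cells for Xcl1 (-0.69 ± 0.13), Gem (-0.78 ± 0.17), Ifitm3 (-1.07 ± 0.18), Inpp4b (-1.12 ± 0.14) and Slc16a10 (-0.94 ± 0.20), an aromatic amino acid transporter. It was also lower for Gzmd (-0.66 ± 0.17), Gzmg (-2.18 ± 0.45) and Gzmf (-1.99 ± 0.19), which rose in both classes. In cycling NK cells a single member gave most Gzmf UMIs of PBS 2 and many of those of PBS 1. The rise of Gzmg there moved with the PBS library left out, as given above. Whether these class differences hold without the top members was not tested. It was higher for Ccl5 (0.81 ± 0.12), Itga2 (0.93 ± 0.21), Gab3 (1.09 ± 0.23) and Galnt18 (2.61 ± 0.58), the last seen in 2, 2, 4 and 6 members only. Against cycling T cells it was lower for Cenpf (-1.04 ± 0.19), Tnfsf10 (-1.01 ± 0.21), Tyrobp (-0.99 ± 0.20), Ifitm3 (-1.10 ± 0.19), Gzma (-1.70 ± 0.13), Gzme (-2.37 ± 0.22), Gzmd (-2.10 ± 0.22) and Gzmf (-0.91 ± 0.19).

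For the combination over PBS against other NK barcodes, the effect was higher in cycling NK cells for Klra3 (1.05 ± 0.23), Galnt18 (2.14 ± 0.54), Ccl5 (0.87 ± 0.12), Gzma (0.45 ± 0.11) and Cxcl2 (4.17 ± 0.61), and lower for Cd69 (-1.07 ± 0.22), Ccl4 (-0.99 ± 0.17), Gzmf (-0.77 ± 0.19) and Cd74 (-2.12 ± 0.34). Against cycling T cells it was higher for Cxcl2 (6.58 ± 0.60) and lower for Gzma (-1.56 ± 0.12), Gzme (-1.53 ± 0.21) and Gzmd (-1.89 ± 0.22). For Cxcl2, 1 member of the combination library gave 95.1% of the UMIs. The limit given for Gzmf under anti-PD-1 holds here as well.

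Between the treated libraries, combination over anti-PD-1, the effect was higher in cycling than in other NK cells for Inpp4b (1.04 ± 0.16) and Hdac9 (3.78 ± 0.76), at 9.56, 22.5, 2.16 and 25.3 CPM in cycling NK cells, and higher than in cycling T cells for Cxcl2 (6.41 ± 0.67).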

How the results depend on the processing

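Each treated arm is 1 library, and without either PBS library no residual degree of freedom was left, so no count of treatment calls exists for that setting. The fold changes moved by more than their SE for 39 of 151 gene results without PBS 1 and 34 without PBS 2, among them Gzmg (2.77 and 0.74), Prf1 (0.37 and 1.19), Ly6c2 (0.62 and 1.11), Rgs1 (-0.44 and -0.83) and Galnt18 (2.21 and 4.0) for anti-PD-1 and Cd69 (-1.03 and -0.32) for the combination. In all members the 23 calls of anti-PD-1 over PBS became 98 with no filter on low counts, 15 with at least 5 Mki67 and Top2a UMIs, 4 without members with a T cell UMI, 223 without top Scrublet scores, 72 without shared barcodes, 122 with sums thinned to equal totals and 124 without other-lineage transcripts. The 1149 of combination over PBS became 105 with DESeq2, 480 without a T cell UMI and 116 without other-lineage transcripts, and the 769 between the treated libraries became 96, 408 and 77. In the members left, the counts of 124, 116 and 77 became 75, 55 and 40 with no filter, 20, 4 and 13 with DESeq2, 73, 59 and 45 with at least 5 UMIs, 15, 6 and 6 without a T cell UMI, and 25, 15 and 3 without top Scrublet scores; combination over PBS had 71 without each gene's top member. Settings that drop members also lower the depth. The prior degrees of freedom, edgeR's weight on the spread shared by all genes, also differed between settings. For anti-PD-1 over PBS in the members left they were infinite (124 calls). They were 14.1 without top Scrublet scores (25) and 17.5 without a T cell UMI (15). In all members they were 14.2 (23 calls), and infinite without top Scrublet scores (223). In that order, 1083, 978, 726, 1033 and 1307 genes had an unadjusted edgeR p under 0.05. The cause of each change was not tested. Cycling against other NK cells gave 2070 calls without shared barcodes, 1073 matched in UMIs and 2844 to 3950 without 1 library (the lowest without PBS 2); the members left gave 2761 with DESeq2 and 1236 matched. Cycling NK against cycling T cells gave 1122 (without PBS 2) to 2525 without 1 library and 3965 without other-lineage transcripts. With at least 2 Mki67 and Top2a UMIs the share of NK barcodes was 18.4%, 17.4%, 12.7% and 12.6%, with at least 5 it was 8.67%, 5.94%, 4.93% and 4.68%, thinned to 1000 UMIs it was 9.74% in PBS 1, and thinned to 2000 it was 13.8%, 13.3% and 11.7% in PBS 2, anti-PD-1 and combination. Of the named genes, Mt1 turned to a log2 fold change of -0.00114 (anti-PD-1 over PBS) and Galnt18 to -0.77 (combination over PBS) with at least 5 UMIs. In all members Klrd1 turned to -0.00280 and Fgf13 to -0.00976 (combination over PBS), and Ifitm3 to 0.061 and Mt1 to 0.92 (combination over anti-PD-1). Depth limits genes under about 10 UMIs in these sums.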
